A study of Mus musculus with 4 samples.

Results

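The genes described here are markers of blood lineages other than microglia, read in RNA from cells sorted as microglia out of the embryonic mouse brain. A list of 45 gene symbols was set by name, with earlier results of these data known. It covers mast cells and basophils, neutrophils and their granule precursors, monocytes, haematopoietic progenitors, platelets, erythroid cells and lymphoid cells. Of these symbols, 36 had a row in the deposited tables, which hold 18526 genes in all, and 33 had a row with all 3 libraries. Another 3 (Ms4a2, Ly6g and Gp9) were listed beside control 6 alone. The remaining 9 (Elane, Ctsg, Ly6c1, Ppbp, Klf1, Hbb-bh1, Slc4a1, Cd3e and Cd3g) were not analysed here.

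The cells came from C57BL/6 embryos at embryonic day 14. The knockout group is labelled Arid1acKO, a conditional deletion of Arid1a. That gene encodes a subunit of BAF, a complex that moves nucleosomes. The control group is labelled Arid1afl/fl, the floxed allele without a stated deletion. Values came from Arid1acKO replicate 2 (the cKO library, 17262261 counted reads), control 5 (18608979 reads) and control 6 (13774075 reads). Knockout replicate 1 was not analysed here, so the cKO values have no replicate error. The labels name neither the Cre driver, nor the sort markers, nor whether embryos were pooled. They place the tissue in the telencephalon in one field and in the cortex in another. No label ties the libraries to different animals. The spread behind each p-value is therefore that of these libraries alone and may be technical.

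Microglia descend from yolk sac progenitors and enter the brain early in development. Mast cells, neutrophils, monocytes, platelets, red cells and lymphocytes arise from haematopoietic progenitors, in the embryo largely in the yolk sac and the fetal liver. Mast cells and basophils store histamine and proteases in granules. Neutrophil precursors fill primary granules first, with myeloperoxidase and serine proteases, and specific granules later, with lactoferrin and cathelicidin. Red cell precursors switch from embryonic to adult globin chains. Bulk RNA from a sort holds whatever cells passed the gate, and fewer cells of a type and less RNA per cell cannot be told apart in it.

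The sorted cells carried the microglial label's defining genes at high levels. P2ry12, a purinergic receptor of microglia, had 4073 CPM (reads scaled by library size and TMM factors) in the cKO library, 7212 in control 5 and 8473 in control 6. Summed over 8 microglia markers the level was 11860 CPM in the cKO library, 16200 in control 5 and 24750 in control 6, and the cKO library was the lowest for 7 of the 8. Summed over the 33 blood lineage genes it was 631 CPM in the cKO library, 567 in control 5 and 532 in control 6. The targeted gene Arid1a had 68.9 CPM in the cKO library against 120 ± 15.1 CPM in controls (SD, n = 2), lowest in the cKO library, with an adjusted p of 0.901 in edgeR's quasi-likelihood test. The libraries also differed in how many genes they left without a read. Of 16655 genes listed with all 3 libraries, 1.05% were at 0 in the cKO library, 16.2% in control 5 and 7.32% in control 6.

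No blood lineage gene passed the test between the cKO library and the controls. Of 31 members tested in edgeR's quasi-likelihood fit over 15236 genes, 0 reached an adjusted p under 0.05, where 0.0394% of all tested genes did (0.0131% higher and 0.0263% lower). At an unadjusted p under 0.05 there were 4 members on the higher side, where the share of all genes was 2.46%, and 2 on the lower side, where it was 3.54%. The cKO library was the highest of the 3 for 18 of the 31 members (58.1%, against 38% of all tested genes), the lowest for 6 (19.4%, against 31.1%) and lay between the controls for 7. The median log2 fold change was 0.74 over the tested members, the same with genes at 0 in a group set to their bound, and 0.05 over all tested genes. These counts are a description and support nothing about the list, for these reasons. The list was chosen with earlier results of these data known. Genes listed beside 1 control only, with at most 4 cKO reads each, are not in the fit. A gene read in 1 library alone could enter the fit, as Gata1 and Gata2 did through the cKO library. Both are counted among the 4 and the 18 above.

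**Figure D1:**
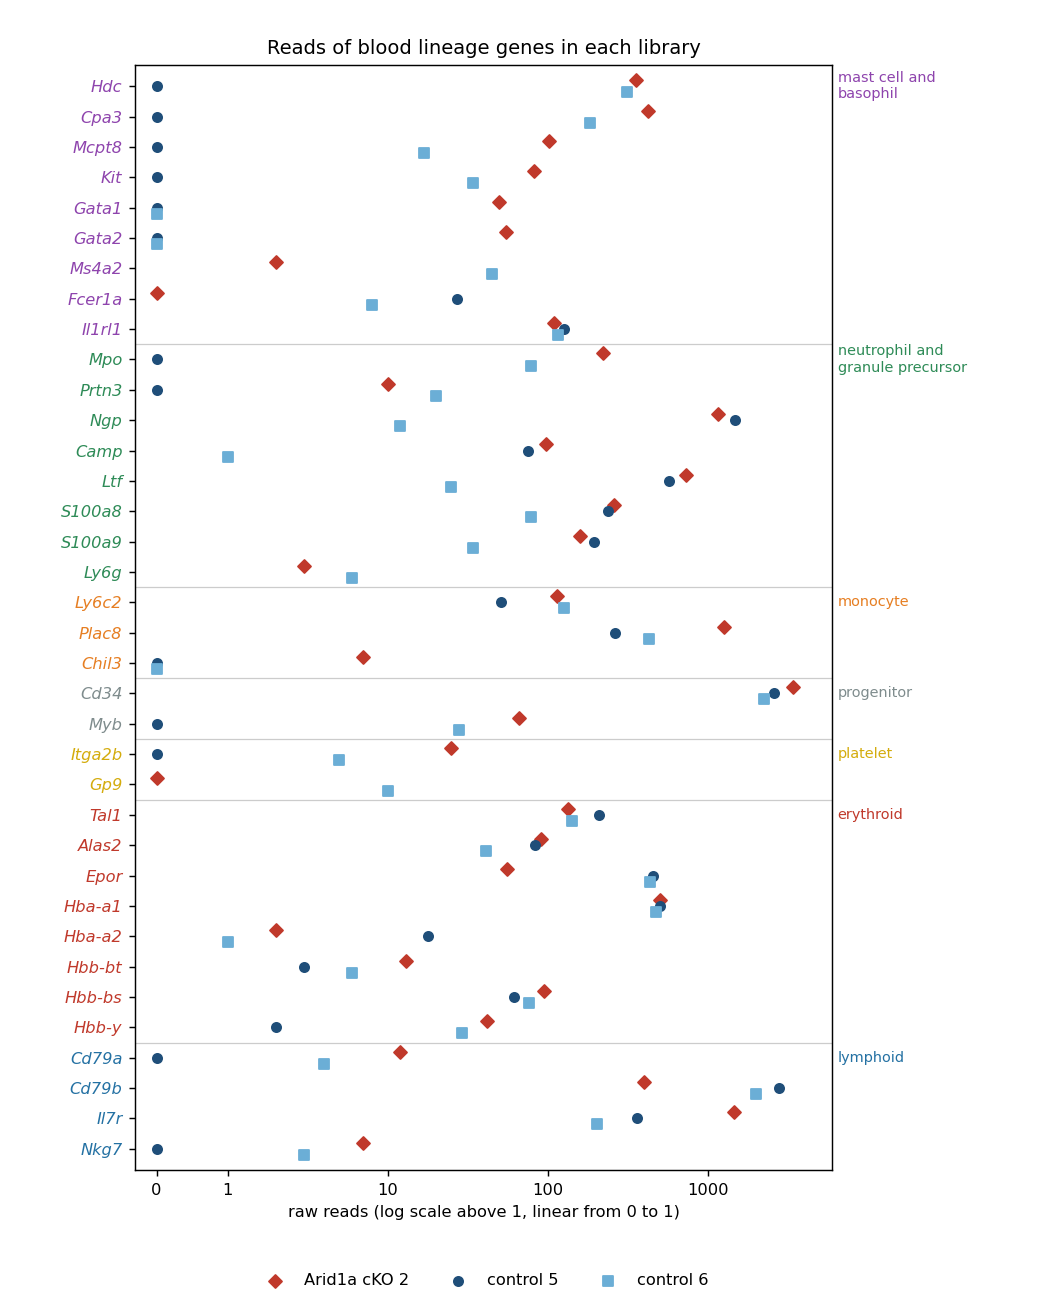
Raw reads of each of the 36 listed blood lineage genes, grouped by lineage (rows), in the Arid1a cKO library, control 5 and control 6 (log scale above 1 read, linear from 0 to 1). Cpa3 had 422 reads in the cKO library, 0 in control 5 and 185 in control 6, while Ngp had 1157 in the cKO library, 1476 in control 5 and 12 in control 6.

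Laid out gene by gene, a few patterns recurred, which the plot of reads by library shows. Hdc, Cpa3, Mcpt8, Kit, Mpo, Prtn3 and Myb, among others, were read in the cKO library and control 6 and were at 0 in control 5. The specific granule members Ngp, Ltf and Camp had like levels in the cKO library and control 5 and were near 0 in control 6. Hba-a1, Hbb-bs and Cd34 differed by under 2-fold between any 2 libraries. Another 3 genes stood apart in the cKO library from a pair of similar controls, with Il7r on the high side and Cd79b and Epor on the low side. Gata1, Gata2 and Chil3 were read in the cKO library alone and Fcer1a in the controls alone, and other members followed none of these patterns. This grouping was made after the values were seen.

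Among the mast cell and basophil members, Hdc and Cpa3 were the most read in the cKO library and control 6. Hdc encodes histidine decarboxylase, which makes histamine. It had 355 reads (19.4 CPM) in the cKO library, against 0 reads in control 5 and 316 reads (23.4 CPM) in control 6. Cpa3, the mast cell carboxypeptidase (ENSMUSG00000001865, chr3:20215620-20242181, minus strand), had 422 reads (23.1 CPM) in the cKO library, against 0 reads in control 5 and 185 reads (13.7 CPM) in control 6. For both genes control 5 alone lacked reads, and the cKO level was nearer to control 6. The cKO library was at least 138-fold above control 5 for Cpa3, a bound set at 3 reads, and 1.69-fold above control 6 (exact interval 1.41 to 2.01). For Hdc the bound over control 5 was 116-fold and the ratio to control 6 was 0.830 (0.711 to 0.969). All such intervals and bounds come from read counts alone and leave out variation between libraries. Reads copied by PCR are not independent molecules, so the intervals can be too narrow even for counting error.

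The control mean ± SD was 6.85 ± 9.69 CPM for Cpa3 and 11.7 ± 16.6 CPM for Hdc (n = 2), so the spread between controls was larger than their mean. The edgeR log2 fold change was 1.76 (SE 1.80) for Cpa3 and 0.74 (SE 1.90) for Hdc, neither past the test, with an adjusted p of 1.000 for each. The promoter of Cpa3 is shown because it holds a GATA match, the letters bound by the GATA factors that are themselves on the list. The window is the 250 bases before the RefSeq start on GRCm38.p6 (chr3:20242182-20242431, minus strand), written 5′ to 3′, and the capitals mark AGATAA.
Cpa3: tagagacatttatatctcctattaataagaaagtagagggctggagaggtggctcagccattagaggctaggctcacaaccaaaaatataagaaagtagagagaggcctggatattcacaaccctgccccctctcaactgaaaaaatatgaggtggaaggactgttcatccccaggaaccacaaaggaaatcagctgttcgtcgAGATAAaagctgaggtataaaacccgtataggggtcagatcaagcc

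The other mast cell genes were thinner. Mcpt8, a granule protease of basophils, had 102 reads in the cKO library, 0 in control 5 and 17 in control 6. Kit, the receptor for stem cell factor on mast cells and progenitors, had 82 reads in the cKO library, 0 in control 5 and 34 in control 6. Both thus followed Hdc and Cpa3 in lacking reads in control 5 only. The cKO library exceeded control 6 by 4.43-fold for Mcpt8 (exact interval 2.64 to 7.90) and by 1.78-fold for Kit (1.18 to 2.74). Gata1, the transcription factor of erythroid, megakaryocyte and mast cells, had 50 reads in the cKO library and 0 in both controls. Gata2, its partner in progenitors and mast cells, had 55 reads in the cKO library and 0 in both controls.

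The cKO library alone held reads of the GATA factor genes, at least 14-fold above the controls for Gata1 and at least 15.4-fold for Gata2 with each control set at 3 reads. Their adjusted p was 0.801 for Gata1 and 0.773 for Gata2 in edgeR, so neither passed. The chains of the IgE receptor ran the other way. Fcer1a, its alpha chain, had 0 reads in the cKO library, 27 in control 5 and 8 in control 6. That put the cKO library at least 6.40-fold below the control mean, with an edgeR adjusted p of 0.956. Ms4a2, its beta chain, had 2 reads in the cKO library and 45 in control 6, and has no value for control 5. Il1rl1, the receptor for interleukin 33, differed little between libraries, with 5.97 CPM in the cKO library, 7.09 in control 5 and 8.67 in control 6 (log2 fold change -0.40, SE 0.88).

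Summed over the 8 shared mast cell and basophil genes, the level was 64.3 CPM in the cKO library, 8.60 in control 5 and 50.2 in control 6. Without Il1rl1 the sums were 1066 reads in the cKO library, 27 in control 5 and 560 in control 6, and all 27 reads of control 5 were those of Fcer1a. Of 16 further genes of these cells 7 had a row and 5 were tested, and 0 passed the edgeR test (2 lower at an unadjusted p under 0.05, and 1 lower by DESeq2, Hpgds). Hpgds, the prostaglandin D synthase of mast cells, is also made by microglia. It had 791 CPM in the cKO library against 2283 in control 5 and 1888 in control 6, below both controls (log2 fold change -1.40, SE 0.34, edgeR adjusted p 0.360). Slc18a2, which loads amines into granules, had 20.1 CPM in the cKO library against 73.0 in control 5 and 44.2 in control 6. Cd200r3, a receptor of mast cells and basophils, repeated the pattern of Cpa3, with 50 reads in the cKO library, 0 in control 5 and 34 in control 6.

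**Figure D2:**
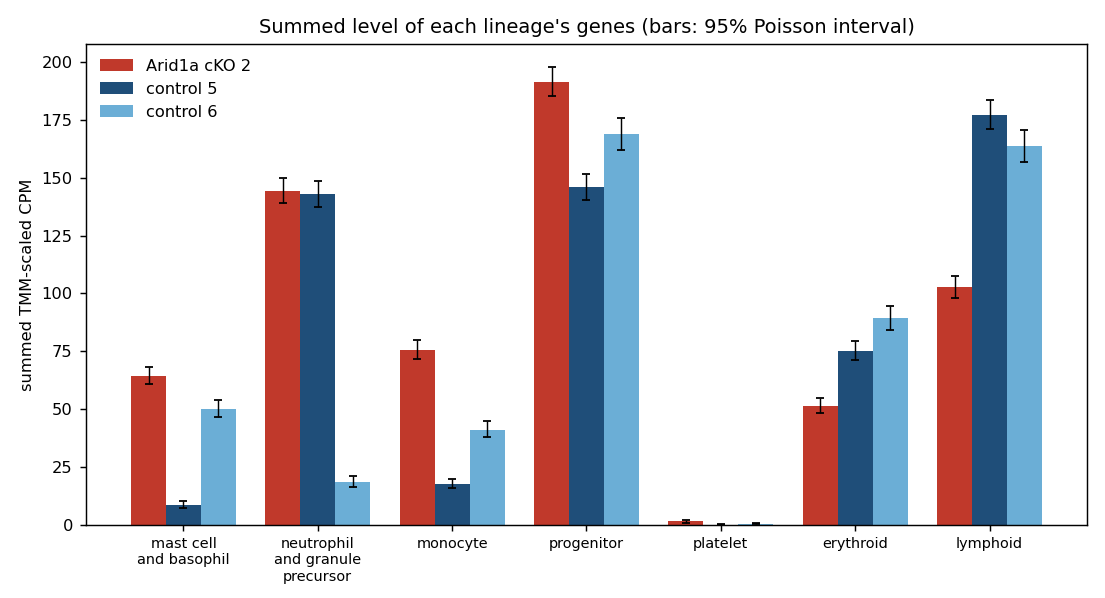
Summed TMM-scaled CPM of the members of each lineage listed with all 3 libraries, in the Arid1a cKO library, control 5 and control 6, with exact 95% Poisson intervals. Neutrophil genes summed to 144 CPM in the cKO library, 143 in control 5 and 18.5 in control 6.

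Among the neutrophil genes, the primary granule members are given first. Mpo, the myeloperoxidase of primary granules, had 221 reads (12.1 CPM) in the cKO library, 0 in control 5 and 79 (5.85 CPM) in control 6. Prtn3, the primary granule proteinase, had 10 reads in the cKO library, 0 in control 5 and 20 in control 6. These primary granule genes lacked reads in control 5, as Hdc, Cpa3, Mcpt8 and Kit did. The cKO library was at least 72.2-fold above control 5 for Mpo and 2.07-fold above control 6 (exact interval 1.59 to 2.71). Some 15.0% of the exon bases of Mpo and 9.18% of those of Prtn3 lie under a gene on the opposite strand, and the library kit does not mark strand.

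The specific granule members Ngp, Ltf and Camp did the opposite, with their reads in the cKO library and control 5. Ngp, the neutrophilic granule protein (ENSMUSG00000032484, chr9:110419747-110423012, plus strand), had 1157 reads (63.3 CPM) in the cKO library, 1476 (82.4 CPM) in control 5 and 12 (0.889 CPM) in control 6. Ltf, lactoferrin (ENSMUSG00000032496, chr9:111019271-111042767, plus strand), had 732 reads (40.1 CPM) in the cKO library, 573 (32.0 CPM) in control 5 and 25 (1.85 CPM) in control 6. Camp, cathelicidin (ENSMUSG00000038357, chr9:109847379-109849617, minus strand), had 98 reads (5.37 CPM) in the cKO library, 75 (4.19 CPM) in control 5 and 1 (0.0741 CPM) in control 6. All 3 thus stood far lower in control 6 than in the other libraries. Summed, they reached 109 CPM in the cKO library, 119 in control 5 and 2.82 in control 6.

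Against control 6 the cKO library was 71.2-fold higher for Ngp (exact interval 40.6 to 138) and 21.6-fold higher for Ltf (14.5 to 33.6). Against control 5 the ratio was 0.768 for Ngp (0.711 to 0.830) and 1.25 for Ltf (1.12 to 1.40). The controls differed from each other by more than the cKO library differed from control 5, and none of the 3 genes passed the edgeR test, with log2 fold changes of 0.60 (SE 1.53) for Ngp, 1.32 (SE 1.83) for Camp and 1.24 (SE 1.17) for Ltf. Their genes lie on chromosome 9 but are not neighbours in the coordinates above. The promoters of Ngp and Ltf are shown because both hold a match to the C/EBP letters TTNNGCAA, the family of factors known for granule genes. The windows are the 250 bases before the RefSeq start on GRCm38.p6 (Ngp, chr9:110419558-110419807, plus strand, and Ltf, chr9:111019042-111019291, plus strand). The capitals mark C/EBP matches on either strand and, in Ltf, also AGATAA.
Ngp: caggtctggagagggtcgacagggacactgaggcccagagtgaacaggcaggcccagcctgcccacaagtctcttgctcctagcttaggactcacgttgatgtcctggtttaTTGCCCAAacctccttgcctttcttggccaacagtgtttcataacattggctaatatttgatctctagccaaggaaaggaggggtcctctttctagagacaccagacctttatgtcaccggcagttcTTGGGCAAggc
Ltf: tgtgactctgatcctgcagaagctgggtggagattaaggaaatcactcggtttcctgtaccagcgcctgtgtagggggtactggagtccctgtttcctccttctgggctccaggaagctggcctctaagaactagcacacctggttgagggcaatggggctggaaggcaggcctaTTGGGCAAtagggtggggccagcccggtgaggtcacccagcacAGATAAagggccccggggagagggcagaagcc

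Ngp holds 2 C/EBP matches and Ltf holds 1 beside a GATA match. The promoter of Camp, which shared their pattern over the libraries, holds 0 C/EBP matches. Over the 8 neutrophil members with a RefSeq promoter, 4 held a C/EBP match, against 9.55% of all 27025 promoters of the same length. A match is a description of the letters and not a site in use.

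S100a8 and S100a9, the calprotectin chains that neutrophils and monocytes share, were less divided. S100a8 had 261 reads (14.3 CPM) in the cKO library, 237 (13.2 CPM) in control 5 and 79 (5.85 CPM) in control 6. S100a9 had 159 reads (8.70 CPM) in the cKO library, 195 (10.9 CPM) in control 5 and 34 (2.52 CPM) in control 6. Control 6 was again the lowest library for both, by a smaller factor than for Ngp or Ltf. Ly6g, a surface marker of neutrophils, had 3 reads in the cKO library and 6 in control 6. Levels per kilobase of exon allow genes to be set side by side within a library. In the cKO library Ngp stood at 51.8 CPM per kilobase, S100a8 at 20.6, S100a9 at 16.7, Ltf at 11.6, Camp at 7.08 and Mpo at 3.53. In control 6 the order was another, with S100a8 at 8.44, S100a9 at 4.83, Mpo at 1.71, Ngp at 0.728, Ltf at 0.537 and Camp at 0.0978.

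Of 13 further neutrophil genes 12 had a row and 10 were tested, and 0 passed the edgeR test (1 lower at an unadjusted p under 0.05 and by DESeq2, Cxcr2). Csf3r, the receptor for granulocyte colony-stimulating factor, had 141 CPM in the cKO library, 147 in control 5 and 287 in control 6. Its level in control 6 was the highest of the 3, where Ngp, Camp and Ltf were lowest. Cxcr2, the chemokine receptor of mature neutrophils, had 7.66 CPM in the cKO library against 73.6 in control 5 and 83.1 in control 6, below both controls (log2 fold change -3.35, SE 0.52). Its edgeR adjusted p was 0.109, and over the other settings tried it ran between 2.15e-07 and 0.320. Mmp8, the neutrophil collagenase of specific granules, had 22.2 CPM in the cKO library, 33.3 in control 5 and 26.4 in control 6, and so did not share the low level of Ngp, Ltf and Camp in control 6. Itgb2l, a beta integrin-like gene, had 29 reads in the cKO library and 0 in both controls.

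The lack of reads in control 5 was set against genes of like level. Of the 33 shared members, 13 were at 0 in control 5, 3 in control 6 and 1 in the cKO library. At 0 in control 5 but read in the other libraries were Hdc, Cpa3, Mcpt8, Kit, Mpo, Prtn3, Myb, Itga2b, Cd79a and Nkg7, 9 of them among the 31 tested, where 9.4% of all tested genes were. Among genes whose other libraries averaged 10 to 30 CPM, 0.829% were at 0 in control 5, and so were 2 of 5 members, Hdc and Cpa3. At 3 to 10 CPM the share was 8.46% of all genes and 3 of 9 members, Mcpt8, Kit and Mpo. At 1 to 3 CPM it was 30% of all genes and 4 of 6 members, Gata1, Gata2, Prtn3 and Myb. Of these, Gata1 and Gata2 were read in the cKO library alone. Members were chosen with earlier results of these data known, so these shares are a description and support nothing about the list. Every member whose other libraries averaged 30 CPM or more was read in all libraries.

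**Figure D3:**
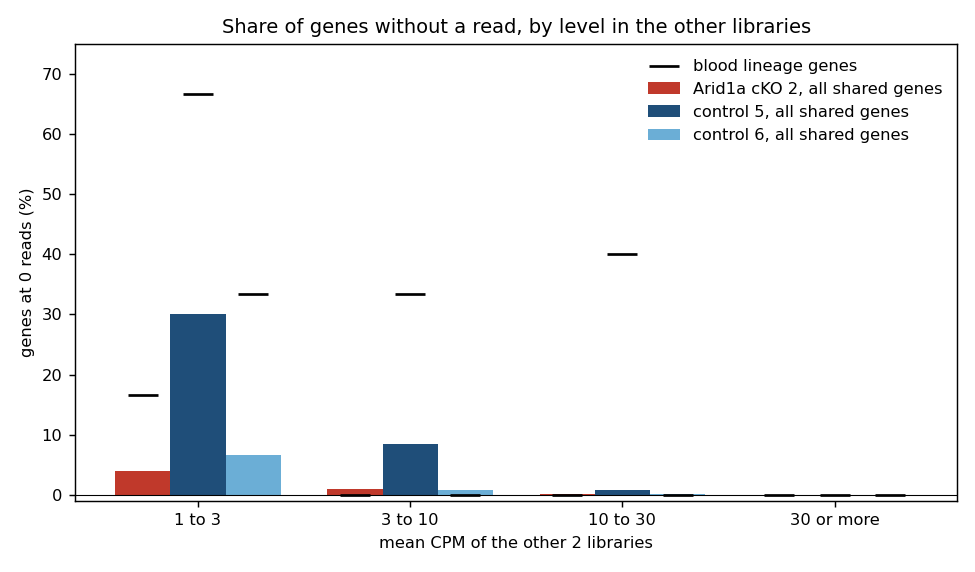
Share of genes at 0 reads in each library (bars, all genes listed with all 3 libraries; black marks, blood lineage genes), by the mean CPM of the other 2 libraries. In control 5 the bars fall through 30%, 8.46% and 0.829% to 0.038%, and 2 of 5 members stood at 0 between 10 and 30 CPM.

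The members at 0 in control 6, Gata1, Gata2 and Chil3, were also at 0 in control 5. Control 6 was the lowest library for 8 of the 31 tested members, close to the background of 26.3% of all tested genes, and 5 of these 8 were neutrophil genes. Control 5 was the lowest for 15 of the 31, where the background was 40.5%. In the plot of one control against the other, Hdc, Cpa3, Mcpt8 and Kit lie on the vertical axis. So do Mpo, Prtn3, Myb, Itga2b, Cd79a and Nkg7 of other lineages, while the mast cell members Fcer1a and Il1rl1 do not. Ngp, Ltf and Camp lie far below the diagonal. The share of all genes at 0 also differed between these libraries, as given above, and its part in these counts was not tested.

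**Figure D4:**
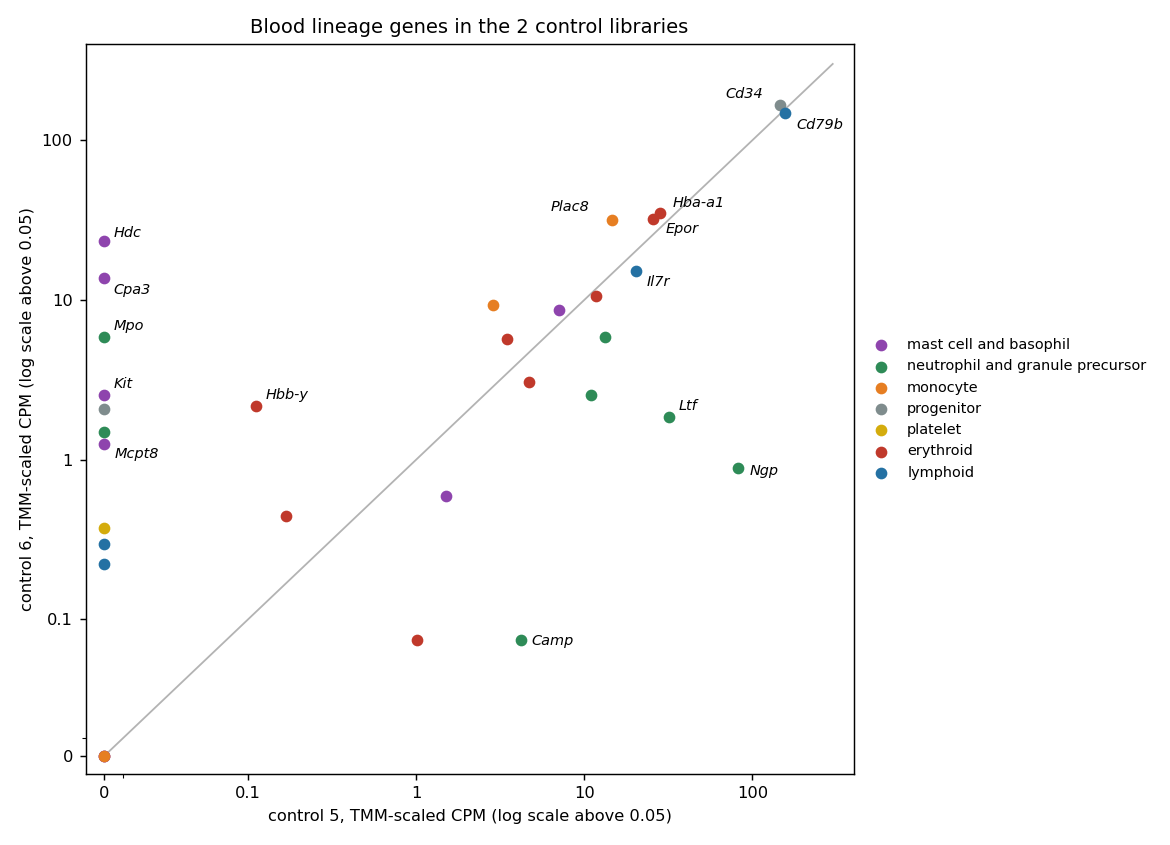
TMM-scaled CPM of the 33 shared blood lineage genes in control 5 (horizontal) and control 6 (vertical), log scales above 0.05, coloured by lineage, with the line of equal level. Hdc lies at 0 and 23.4 CPM, Ngp at 82.4 and 0.889, and Cd34 and Cd79b lie near the line.

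The monocyte genes were led by Plac8, a gene of monocytes and other myeloid cells (chr5:100553725-100572245, minus strand). It had 1259 reads (68.9 CPM) in the cKO library, against 263 (14.7 CPM) in control 5 and 428 (31.7 CPM) in control 6. The cKO library was above both controls, by 4.69-fold over control 5 (exact interval 4.10 to 5.38) and 2.17-fold over control 6 (1.95 to 2.43). The control mean was 23.2 ± 12.04 CPM (SD, n = 2), the log2 fold change 1.57 (SE 0.55) and the edgeR adjusted p 0.702, so the difference did not pass. Ly6c2, a surface protein of inflammatory monocytes, lay between the controls, with 6.24 CPM in the cKO library, 2.85 in control 5 and 9.34 in control 6. Chil3, the chitinase-like protein Ym1, had 7 reads in the cKO library and 0 in both controls.

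All 10 further monocyte genes listed were tested and 0 passed in edgeR (2 higher at an unadjusted p under 0.05 and by DESeq2, Fn1 and Ms4a4c). Fn1, fibronectin, had 84.2 CPM in the cKO library against 17.6 in control 5 and 18.7 in control 6 (log2 fold change 2.22, SE 0.44, edgeR adjusted p 0.212). Ms4a4c, a membrane protein read in monocytes, had 134 CPM in the cKO library against 43.2 in control 5 and 38.1 in control 6. Both were above each control, as Plac8 was. Ccr2, the receptor that draws monocytes out of the marrow, was not, with 93.0 CPM in the cKO library against 120 in control 5 and 138 in control 6. F13a1, a coagulation factor chain of monocytes and macrophages, had 68.4 CPM in the cKO library, 68.7 in control 5 and 127 in control 6.

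Among the progenitor genes, Cd34, a surface sialomucin of progenitors and of blood vessels, was the most read member in the cKO library and control 6 and came after Cd79b in control 5. It had 3431 reads (188 CPM) in the cKO library, 2610 (146 CPM) in control 5 and 2248 (167 CPM) in control 6. The cKO library was the highest by a small margin over controls at 156 ± 14.7 CPM (SD, n = 2), and the edgeR log2 fold change of 0.27 (SE 0.36) missed the threshold. A pair of vessel endothelium genes lay on opposite sides of the controls beside it. Pecam1 had 3.89 CPM in the cKO library, 20.5 in control 5 and 27.3 in control 6. Kdr had 14.3 CPM in the cKO library, 7.32 in control 5 and 6.52 in control 6. Summed over 6 endothelial genes other than Cd34 the level was 27.04 CPM in the cKO library, 39.3 in control 5 and 36.5 in control 6, and their part in Cd34 was not tested.

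Myb, the transcription factor that definitive blood progenitors need and yolk sac microglia do not, shared the pattern of Hdc, Cpa3, Mcpt8 and Kit. It had 66 reads (3.61 CPM) in the cKO library, 0 in control 5 and 28 (2.07 CPM) in control 6. That is at least 21.6-fold above control 5 and 1.74-fold above control 6 (exact interval 1.10 to 2.82). Myb and Cd34 thus parted in control 5, where Cd34 made up all reads of this pair. Of 11 further progenitor genes 9 had a row and 7 were tested, and 0 passed in edgeR, at an unadjusted p under 0.05 or by DESeq2. The same counts of 0 held for the further platelet, erythroid and lymphoid genes below. The cKO library was the lowest of the 3 for 4 of these 7 genes, the highest for 1 and between the controls for 2. Etv6, a transcription factor that blood stem cells need, had 44.1 CPM in the cKO library, 87.5 in control 5 and 65.4 in control 6 (log2 fold change -0.79, SE 0.44). Meis1, a homeobox factor of blood stem cells, had 11.2 CPM in the cKO library, 22.0 in control 5 and 23.3 in control 6 (log2 fold change -1.01, SE 0.61). Both were below each control without passing the test. Runx1, needed for the first blood stem cells and made by microglia, was level at 196 CPM in the cKO library, 186 in control 5 and 188 in control 6.

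Platelet genes were the thinnest. Itga2b, the platelet integrin alpha IIb, had 25 reads in the cKO library, 0 in control 5 and 5 in control 6. Gp9, part of the receptor for von Willebrand factor, had 0 reads in the cKO library and 10 in control 6, and has no value for control 5. The pair did not share a direction against control 6. Of 12 further platelet genes 8 had a row and 6 were tested, and 0 passed in edgeR. The cKO library lay between the controls for 4 of the 6 and was the lowest for 2. Itgb3, the beta chain that pairs with Itga2b, was the most read, with 46.8 CPM in the cKO library, 13.4 in control 5 and 58.8 in control 6. Pf4, a platelet chemokine that border macrophages also make, had 5.53 CPM in the cKO library, 7.65 in control 5 and 4.52 in control 6. Nfe2, a transcription factor of platelet formation, had 5.86 CPM in the cKO library, 9.27 in control 5 and 2.45 in control 6. The 2 genes lowest in the cKO library were Treml1 and Gp1ba. Treml1, a receptor in platelet granules, had 10 reads in the cKO library, 26 in control 5 and 30 in control 6. Gp1ba, the partner of Gp9 in its receptor, had 14 reads in the cKO library, 49 in control 5 and 18 in control 6.

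The erythroid genes held a steady part and a variable part. Hba-a1, an adult alpha globin gene (chr11:32283511-32284465, plus strand), had 504 reads (27.6 CPM) in the cKO library, 507 (28.3 CPM) in control 5 and 474 (35.1 CPM) in control 6. The cKO level was 0.974 of control 5 (exact interval 0.860 to 1.10) and 0.785 of control 6 (0.692 to 0.892), with a log2 fold change of -0.20 (SE 0.51). Hba-a2, its copy (chr11:32296489-32297298, plus strand), had 2 reads in the cKO library, 18 in control 5 and 1 in control 6. Their split is uncertain, since 72.3% of the 50-base words of Hba-a1 and 89.3% of those of Hba-a2 occur in the other gene. Together they had 506 reads in the cKO library, 525 in control 5 and 475 in control 6. Their promoters on GRCm38.p6 show how close the copies are (Hba-a1, chr11:32283422-32283671, plus strand, and Hba-a2, chr11:32296242-32296491, plus strand). The longest run they share is 247 of the 250 bases, and the capitals mark a TGATAA match in each.
Hba-a1: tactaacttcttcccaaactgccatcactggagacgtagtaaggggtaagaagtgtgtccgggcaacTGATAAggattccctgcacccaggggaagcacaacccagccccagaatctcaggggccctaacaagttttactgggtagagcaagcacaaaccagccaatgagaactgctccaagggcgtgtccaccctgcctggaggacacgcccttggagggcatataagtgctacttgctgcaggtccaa
Hba-a2: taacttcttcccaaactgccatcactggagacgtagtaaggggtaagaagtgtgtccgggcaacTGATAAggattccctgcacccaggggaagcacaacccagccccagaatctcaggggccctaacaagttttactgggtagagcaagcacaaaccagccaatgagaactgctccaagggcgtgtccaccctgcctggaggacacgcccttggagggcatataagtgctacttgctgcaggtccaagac

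Beta globin genes were lower. Hbb-bs, an adult beta globin gene, had 95 reads (5.20 CPM) in the cKO library, 62 (3.46 CPM) in control 5 and 77 (5.71 CPM) in control 6. Hbb-bt, its copy, had 13 reads in the cKO library, 3 in control 5 and 6 in control 6. The copies share 53.2% of the words of Hbb-bs and 58.3% of those of Hbb-bt, so they too are uncertain apart. Reads of the alpha pair over the adult beta pair gave a ratio of 4.69 in the cKO library, 8.08 in control 5 and 5.72 in control 6. The promoter of Hbb-bs (GRCm38.p6, chr7:103827929-103828178, minus strand) is shown because it alone among the erythroid members held the CACC letters CCACACCC. The capitals mark a C/EBP match, AGATAA and CCACACCC, in that order.
Hbb-bs: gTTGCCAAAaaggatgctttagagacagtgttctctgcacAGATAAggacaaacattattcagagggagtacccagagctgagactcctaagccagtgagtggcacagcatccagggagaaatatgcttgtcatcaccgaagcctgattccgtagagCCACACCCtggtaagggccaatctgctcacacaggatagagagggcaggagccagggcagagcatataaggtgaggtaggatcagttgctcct

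Hbb-y, an embryonic beta-like globin gene of yolk sac red cells, broke from the adult chains. It had 42 reads (2.30 CPM) in the cKO library, 2 (0.112 CPM) in control 5 and 29 (2.15 CPM) in control 6. The cKO level was 20.6-fold that of control 5 (exact interval 5.35 to 176) and 1.07-fold that of control 6 (0.651 to 1.78). For each read of an adult beta gene there were 0.389 reads of Hbb-y in the cKO library, 0.0308 in control 5 and 0.349 in control 6. Hba-x, the embryonic alpha-like gene, was chosen after its values were seen, and had 108 reads in the cKO library, 7 in control 5 and 100 in control 6. Both embryonic globin genes were thus nearly unread in control 5, where adult alpha globin reads were as many as elsewhere. With control 5 left out the cKO library differed by 0.09 in log2 CPM of Hbb-y, and with control 6 left out by 3.38. These differences include a prior count of 2, which draws the value against control 5, at 2 reads, toward 0.

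Epor, the receptor for erythropoietin (ENSMUSG00000006235, chr9:21958897-21963506, minus strand), was the erythroid gene in which the cKO library stood apart. It had 56 reads (3.07 CPM) in the cKO library, against 458 (25.6 CPM) in control 5 and 434 (32.2 CPM) in control 6. The controls were alike at 28.9 ± 4.65 CPM (SD, n = 2), and the cKO level was 9.42-fold lower than their mean. The log2 fold change was -3.23 (SE 0.69) with an edgeR adjusted p of 0.263, so the difference did not pass. With either control left out the difference in log2 CPM was -3.34 or -3.01. DESeq2's Wald test gave an adjusted p of 0.00363, and over all other settings tried the adjusted p lay between 0.00363 and 0.475. The Epor promoter (GRCm38.p6, chr9:21963577-21963826, minus strand) is shown because it holds a GATA match, read here on the opposite strand and marked in capitals as TTATCT.
Epor: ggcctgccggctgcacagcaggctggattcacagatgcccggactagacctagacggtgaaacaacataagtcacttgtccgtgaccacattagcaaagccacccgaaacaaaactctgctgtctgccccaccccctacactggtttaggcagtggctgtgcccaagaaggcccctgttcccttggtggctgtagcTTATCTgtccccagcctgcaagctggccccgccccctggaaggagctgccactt

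A GATA match (AGATAA or TGATAA on either strand) stood in 7 of the 8 erythroid promoters and in 4 of the 9 of mast cell genes, against 17% of all promoters of that length. Over all 35 members with a RefSeq promoter, 14 held a GATA match (40%), 9 a C/EBP match (25.7%, against 9.55%) and 3 a CACC match (8.57%, against 3.19%). Genes with a GATA match had different patterns over the libraries, with Cpa3 at 0 in control 5, Hba-a1 level and Epor lowest in the cKO library.

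Tal1, a transcription factor of blood and red cell progenitors, had 7.39 CPM in the cKO library, 11.7 in control 5 and 10.5 in control 6. Alas2, the erythroid enzyme that starts haem synthesis, had 4.98 CPM in the cKO library, 4.69 in control 5 and 3.04 in control 6. Neither came near the test, with log2 fold changes of -0.59 (SE 0.76) and 0.36 (SE 1.14) for Tal1 and Alas2. Of the exon bases of Alas2, 15.5% lie under a gene on the opposite strand. Of 20 further erythroid genes 11 had a row and 9 were tested, and 0 passed the edgeR test. Sptb, the red cell beta spectrin, had 578 reads in the cKO library, 0 in control 5 and 68 in control 6. Its edgeR adjusted p was 0.850. Tfrc, the transferrin receptor, had 55.6 CPM in the cKO library against 9.55 in control 5 and 31.7 in control 6.

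Among the lymphoid genes, Cd79b and Il7r set the cKO library apart from both controls, in opposite directions. Cd79b, the beta chain that signals for the B cell receptor (ENSMUSG00000040592, chr11:106311341-106314762, minus strand), had 399 reads (21.8 CPM) in the cKO library, against 2811 (157 CPM) in control 5 and 1997 (148 CPM) in control 6. The controls averaged 152 ± 6.39 CPM (SD, n = 2), and the cKO level was 6.98-fold lower. The log2 fold change was -2.80 (SE 0.44) with an edgeR adjusted p of 0.118, which did not pass. With either control left out the difference in log2 CPM was -2.84 or -2.75. With genes under 5 CPM in 2 libraries filtered out the edgeR adjusted p was 0.0285, and DESeq2's Wald test gave 9.37e-08. Over all other settings tried it lay between 9.37e-08 and 0.320. Cd79a, the alpha chain that B cells pair with it, had 12 reads in the cKO library, 0 in control 5 and 4 in control 6. Per kilobase of exon Cd79b stood at 15.3 CPM in the cKO library, 110 in control 5 and 103 in control 6, while Cd79a stood at 0.451 CPM in the cKO library, 0 in control 5 and 0.203 in control 6.

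Il7r, the receptor for interleukin 7 in lymphoid progenitors and T cells (ENSMUSG00000003882, chr15:9506161-9529876, minus strand), went the other way. It had 1457 reads (79.8 CPM) in the cKO library, against 364 (20.3 CPM) in control 5 and 204 (15.1 CPM) in control 6. The controls averaged 17.7 ± 3.69 CPM (SD, n = 2), and the cKO level was 4.50-fold higher, 3.92-fold over control 5 (exact interval 3.49 to 4.41) and 5.28-fold over control 6 (4.55 to 6.14). The log2 fold change was 2.17 (SE 0.46) with an edgeR adjusted p of 0.263, which did not pass. DESeq2's Wald test gave an adjusted p of 0.0227, and over all other settings tried the adjusted p lay between 0.0227 and 0.480. Nkg7, a granule gene of killer cells, had 7 reads in the cKO library, 0 in control 5 and 3 in control 6. Of 20 further lymphoid genes only 5 had a row, 3 were tested and 0 passed in edgeR. Ebf1, the B cell transcription factor, had 44 reads in the cKO library, 160 in control 5 and 108 in control 6. Lck, the T cell kinase, had 21 reads in the cKO library and 0 in both controls.

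**Figure D5:**
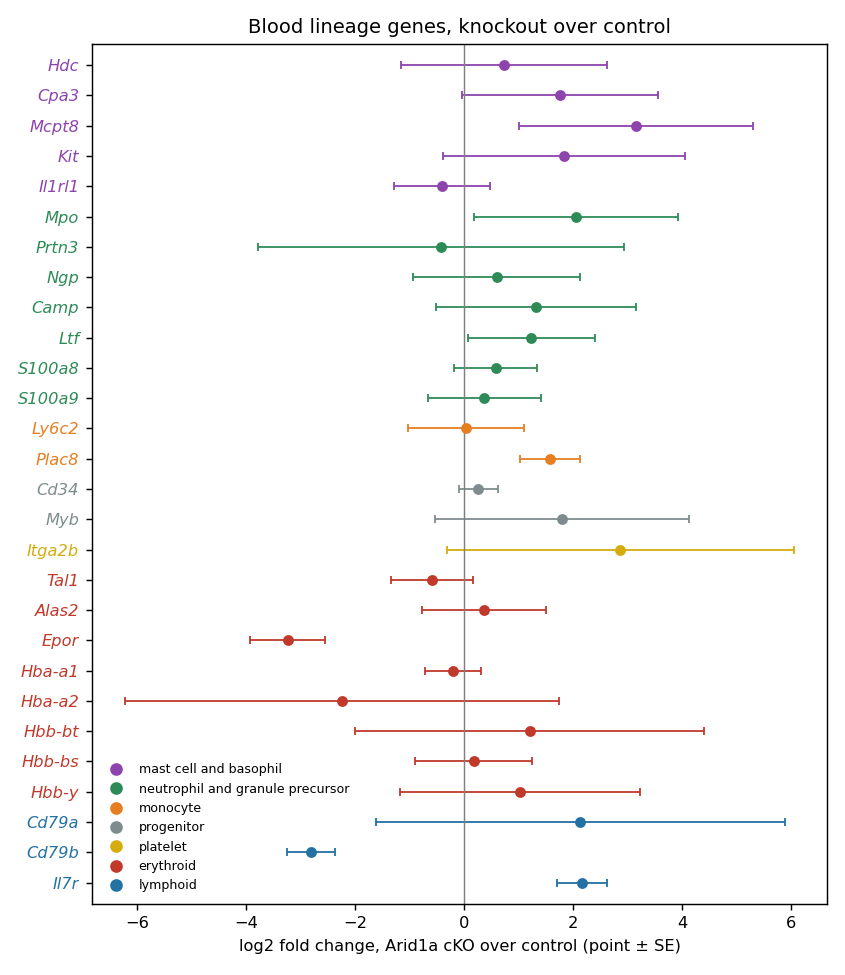
The edgeR log2 fold change of the Arid1a cKO library over controls (points), for tested blood lineage genes read in both groups, by lineage. Bars are the SE derived from the F statistic of the test. Epor (-3.23) and Cd79b (-2.80) lie to the left and Il7r (2.17) and Plac8 (1.57) to the right with short bars, while Cpa3 and Mpo have bars of over 1.5 on the log2 scale.

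Epor, Cd79b, Il7r and Plac8 were the members with an SE under 0.7 and a log2 fold change of over 2 times its SE, a description made after the values were seen. By DESeq2's Wald test 3 members passed, 1 higher (Il7r) and 2 lower (Epor and Cd79b), out of the 18 members given an adjusted p. Of the 10510 genes given one, 0.628% were called higher and 1.49% lower. Markers of other cells are given from the same libraries. Prg2, the major basic protein of eosinophils, had 4 reads in the cKO library, 794 in control 5 and 203 in control 6, with an edgeR adjusted p of 0.118. Prg3, its relative, had 0 reads in the cKO library, 43 in control 5 and 9 in control 6. Siglecf, a lectin of eosinophils and some macrophages, had 119 CPM in the cKO library, 21.7 in control 5 and 57.9 in control 6. Tmem119, a surface protein of microglia, was below both controls, with 583 CPM in the cKO library against 1535 in control 5 and 2266 in control 6. Markers of border macrophages summed to 310 CPM in the cKO library, 324 in control 5 and 279 in control 6. Of these markers 2 were at 0 in control 5 alone, and 0 were at 0 in the cKO library or control 6. Lyve1 was among the 2, with 122 reads in the cKO library, 0 in control 5 and 13 in control 6. Markers of neurons and neural progenitors summed to 148 CPM in the cKO library, 116 in control 5 and 165 in control 6. In edgeR 0 of 8 microglia, 4 eosinophil, 6 border macrophage, 6 endothelial and 5 neural markers tested passed. At an unadjusted p under 0.05 there were 5 microglia markers, 2 of eosinophils and 1 of endothelium, and by DESeq2 3 microglia markers and 1 of eosinophils, Prg2. The part of these cells in the values above was not tested.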

How the data were processed

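Per the labels' protocols, the TruSeq kit used on RNA of the sorted microglia keeps no strand information. Per the submitters' processing notes, TopHat2 2.0.12, Bowtie2 2.2.3 and HTSeq 0.6.0 were used and the build named is mm9, but 99.9% of 18480 deposited gene positions overlapped GENCODE M21 on GRCm38, so coordinates are given on that build. The authors deposited 2 tables, each of cKO replicate 2 beside 1 control, with raw read counts per gene, CPM values, a ratio (the fold change), a log2 ratio and p-values. Only the deposited counts are used. The tables share 16655 genes, 574 stood only beside control 5 and 1297 only beside control 6, with few cKO reads.

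Shared counts were fitted with edgeR 4.0.16 in R 4.3.3 (TMM, filterByExpr, quasi-likelihood F test, two-sided, Benjamini-Hochberg over all 15236 genes, threshold 0.05). The 2 controls give the 1 residual degree of freedom, and the spread of the cKO library is taken to equal theirs. Each SE was derived as the absolute log2 fold change divided by the square root of the F statistic. On the TMM scale used here, a read was worth 0.0547 CPM in the cKO library, 0.0559 in control 5 and 0.0741 in control 6. Intervals are exact at the 95% level, and bounds use 3 reads per library. DESeq2 1.42.0, other scalings and filters and leaving out a control were alternatives. With a control left out, the value of a gene is a difference of log2 CPM with a prior count of 2, not a refit. Members and gene lists were chosen with earlier results of these data known. Besides all members and Arid1a, up to 3 genes by level and 2 by unadjusted p were eligible to be named from each further list. Promoters are RefSeq's, found for 35 members.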

Additional observations from a re-analysis of the deposited data

How the results depend on the processing

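Over all genes 6 were called in the reported fit, 2 higher and 4 lower. In edgeR 0 were called, in either direction, without a low-count filter (948 genes at an unadjusted p under 0.05), with upper-quartile scaling (818) or with the size factors of DESeq2 (895). A filter of 5 CPM in 2 libraries gave 44 (17 higher, 27 lower), adding genes listed beside 1 control gave 10 (5 higher), and DESeq2's Wald test 223 (66 higher, 157 lower). Members called were 0 in the reported fit, with 6 at an unadjusted p under 0.05, 1 with the 5 CPM filter and 3 with DESeq2. Of 172 member values under settings that kept all libraries, 168 stayed on their side of the threshold with their direction, 4 passed it and 0 turned sign. With 1 control left out 7 of the 31 members turned sign, with log2 fold changes from -0.27 to 7.34 for Hdc, -1.26 to 2.47 for Prtn3, -0.38 to 5.97 for Ngp, -0.32 to 1.74 for S100a9, -0.57 to 1.10 for Ly6c2, -2.29 to 0.24 for Hba-a2 and -0.13 to 0.57 for Hbb-bs, as did Csf1r (-0.58 to 0.34) and Hba-x (-0.32 to 3.56). These values are differences of log2 CPM with a prior count of 2. For Hdc and Prtn3, at 0 reads in control 5, the upper value rests on that prior count and is not a measured fold change. The cause of the turns in sign was not tested. The median over all genes was 0.05, and 0.14 without control 6. The log2 ratio of summed levels was 0.84 for neutrophil genes and 0.016 to 2.96 with 1 control left out, 1.37 for monocyte genes and 0.12 without Plac8, 0.28 for progenitor genes and 1.69 without Cd34, -0.68 for erythroid genes and -1.09 without Hba-a1, and -0.73 for lymphoid genes, -0.61 by library totals and 2.17 without Cd79b. Against a single control, a comparison chosen after seeing the data, the cKO library was below control 6 in 10 of the 31 members (32.3%, against 48.7% of all tested genes) and below control 5 in 9 (29%, against 44.5%), and below both in 6. No paired analysis was possible with 1 cKO library. The cKO library (replicate 2) and the controls (5 and 6) also share no replicate number, and such numbers alone would not show a pairing.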
